A study of Homo sapiens with 12 samples.

Results

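The genes described here are ICAM1 and 9 other cell surface adhesion molecules: ICAM2, ICAM3, VCAM1, L1CAM, ALCAM, MCAM, NCAM1, CD44 and CD58. They were chosen by name, by a rule that uses no measured value but was written with earlier results of these data known, and are 10 of the 28070 genes in the count table. The cells were MV3, an established human melanoma line, and RNA was sequenced from 12 libraries in 4 groups of 3. All groups spent 3 h in RPMI with 1% serum depleted of extracellular vesicles (EVs) before a treatment of 24 h. Ctrl received PBS, and the M0 EV, M1 EV and M2 EV groups received 1e10 particles per well of EVs collected by ultracentrifugation from macrophages of the human monocytic line THP-1 in the M0, M1 or M2 state, polarized for 48 h. No polarizing agent is named, and the control is PBS, not vesicles of another source. Replicate numbers are given without saying whether they stand for separate cultures or vesicle preparations, so errors and p-values cover only the spread among these libraries, which may be technical.

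Cell adhesion molecules hold cells to each other and to the matrix. Most of the 10 belong to the immunoglobulin superfamily, whose extracellular domains bind integrins, lectins or copies of themselves on a neighbouring cell. ICAM1, ICAM2 and ICAM3 are ligands of the leukocyte integrin LFA-1, VCAM1 is a ligand of the integrin built from ITGA4 and ITGB1, and CD58 is the ligand of CD2 on T cells. L1CAM, ALCAM, MCAM and NCAM1 bind homophilically or to other surface proteins, and MCAM and L1CAM are long known in melanoma. CD44, which is not an immunoglobulin-family protein, is the main cell surface receptor for hyaluronan. ICAM1 and VCAM1 are textbook targets of inflammatory cytokines, acting largely through NF-kappaB.

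Promoter sequences are shown for these 2 genes because ICAM1 had the largest change of the group and VCAM1, its usual companion in cytokine responses, had no count in any library. Each is the 250 bases before the RefSeq start site on GRCh38.p14, plus strand, at chr19:10270870-10271119 for ICAM1 and chr1:100719492-100719741 for VCAM1. Capitals mark matches to a kappaB sequence (a different pattern in each window), to the gamma-activated site TTCNNNGAA bound by STAT factors, and to TATAAA on either strand.
ICAM1: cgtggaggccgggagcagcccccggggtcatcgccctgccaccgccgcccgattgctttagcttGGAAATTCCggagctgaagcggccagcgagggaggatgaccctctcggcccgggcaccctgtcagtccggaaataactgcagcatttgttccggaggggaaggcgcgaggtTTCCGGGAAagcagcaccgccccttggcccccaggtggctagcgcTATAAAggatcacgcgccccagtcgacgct
VCAM1: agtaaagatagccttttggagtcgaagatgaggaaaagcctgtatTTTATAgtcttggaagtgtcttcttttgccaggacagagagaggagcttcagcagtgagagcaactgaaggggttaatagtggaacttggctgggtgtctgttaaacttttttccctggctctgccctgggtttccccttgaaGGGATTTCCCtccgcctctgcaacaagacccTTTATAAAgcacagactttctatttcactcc
The ICAM1 window held GGAAATTCC at -186 to -178, TTCCGGGAA at -75 to -67, which is the gamma-activated site, and TATAAA at -30 to -25, counted back from the start site. The 9 letters GGAAATTCC were searched after this sequence had been read, and 0.41% of 35116 RefSeq promoter windows of this length held them on either strand. The ICAM1 window held no match to the degenerate kappaB decamer. The gamma-activated site was in 6.57% of windows and TATAAA in 10.72%. The VCAM1 window held GGGATTTCCC at -62 to -53, a match to that decamer, which 5.21% of windows held. TATAAA or its reverse complement TTTATA lay there at -205 to -200 and, as overlapping matches, at -31 to -26 and -29 to -24. Of the 10 genes, 8 matched a promoter entry (11 windows), and ICAM2 and NCAM1 were not in the table. No window of ICAM3, L1CAM, ALCAM, MCAM, CD44 or CD58 held one of these motifs, and no window of the 8 genes held the AP-1 sequence TGANTCA, which 6.57% of all windows held. A match describes letters only.

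The libraries held 9693770 to 14378052 counts over genes, and 13106 genes passed the filter on low counts and were tested. Levels are library-size scaled counts (CPM) adjusted by edgeR's TMM factors, and a gene was called where edgeR's quasi-likelihood test gave a Benjamini-Hochberg adjusted p below 0.05 over all tested genes. Of the melanoma and melanocyte markers, AXL, PRAME, CSPG4 and PAX3 were expressed, 3 of 20 had no count in any library, and SOX10, S100B, TYR and PMEL were at or near 0. The summed melanoma markers lay at 1822 to 1891 CPM in the M1 EV libraries and at 2021 to 2100 CPM in the other 9. AXL, the most abundant of them, had 1038 CPM in M1 EV and 1311 CPM in Ctrl, while SERPINE2 rose from 168 to 254 CPM, so the sum does not stand for the whole list. The 30 macrophage markers summed to 88.57 to 89.43 CPM in the M1 EV libraries and 71.28 to 78.91 CPM in the others, with 9 of them at 0 throughout. Most of this sum was CD68, at 56.7 CPM in Ctrl and 66.9 CPM in M1 EV, and CD74, at 11.1 and 13.3 CPM. Both were thus present without vesicles, and this sum does not stand for its whole list either. The 11 endothelial markers, 4 of them at 0, summed to 7.06 to 8.75 CPM across all libraries. The part of these marker differences in the results was not tested.

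Vesicles of M1 macrophages were followed by a large rise of ICAM1, smaller rises of MCAM and CD44, and falls of L1CAM and ALCAM, while ICAM3 and CD58 did not pass the test. Enough counts for the test were present for 7 of the 10 genes. In M1 EV against Ctrl, 3 of the 7 rose and 2 fell, where 28.1% of all 13106 tested genes were called (14.3% higher and 13.7% lower). The median log2 fold change of the 7 was -0.05, beside 0.00 over all tested genes. The 5 genes also did not overlap between the groups, which held for 39.6% of all genes. The share of all genes with the M1 EV libraries apart from all the other 9 was not counted. Of the 7, ICAM1 alone changed at least 2-fold, and 76 genes, or 0.580% of those tested, rose by that much. The plot of levels by library shows ICAM1 in the M1 EV libraries apart from the other 9.

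**Figure D1:**
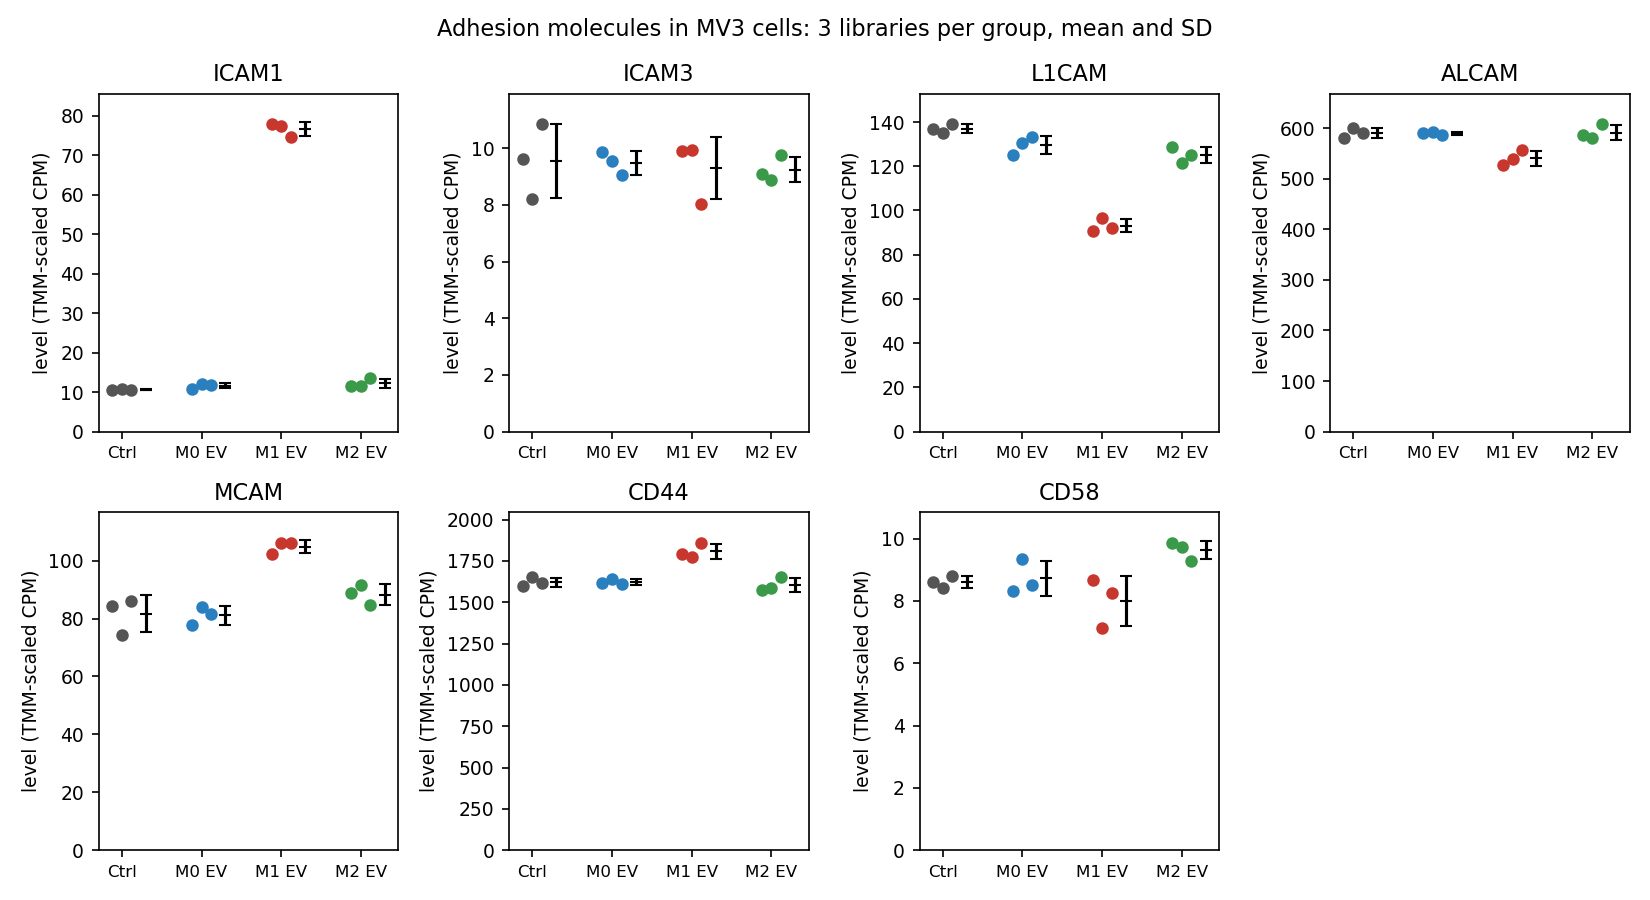
Level of each tested adhesion molecule in each of the 12 libraries, in TMM-scaled CPM on axes that start at 0, with 1 point per library and, beside each group, its mean with bars for 1 SD. ICAM1 lies between 74.5 and 77.9 CPM in the 3 M1 EV libraries and between 10.5 and 13.6 CPM in the other 9.

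ICAM1 (Entrez gene 3383, chr19:10271120-10286615 on GRCh38.p14) is the ligand through which leukocytes bearing LFA-1 or Mac-1 attach firmly to other cells. Its level was 10.5, 10.7 and 10.7 CPM in the Ctrl libraries. It was 10.9, 12.1 and 11.9 CPM in the M0 EV libraries and 11.5, 11.7 and 13.6 CPM in the M2 EV libraries. The M1 EV libraries gave 77.9, 77.4 and 74.5 CPM, from 754, 848 and 760 counts. Each M1 EV library was thus far above every other, and the 3 M1 EV values lay close together. Against Ctrl the level was 7.21-fold higher (95% interval 6.57 to 7.91), a log2 fold change of 2.85 ± 0.07 (SE, n = 3 against 3, edgeR adjusted p = 5.9e-30). Among all tested genes, 10 rose by more than ICAM1.

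The M1 EV libraries also held more ICAM1 RNA than the M0 EV and M2 EV libraries. The log2 difference was 2.72 ± 0.06 against M0 EV (adjusted p = 6.39e-30) and 2.64 ± 0.06 against M2 EV (adjusted p = 3.82e-30), both from edgeR. ICAM1 is also expressed by macrophages, so the markers of the vesicle source cells stand beside it. PTPRC, the pan-leukocyte marker, had 2 counts over the 3 M1 EV libraries and none in Ctrl, where ICAM1 had 2362 and 329 counts. LYZ and SPI1 had no count in the M1 EV group and 1 and 0 counts in Ctrl, too few to differ. Other untested markers went both ways. MRC1 and CSF1R had 10 and 16 counts in M1 EV and 5 and 10 in Ctrl, while CD14 and LAPTM5 had 3 and 4 in M1 EV and 7 and 6 in Ctrl. Among the 5 macrophage markers with enough counts to be tested, CTSS and CD68, both lysosomal proteins, rose against Ctrl, where 14.3% of all genes rose. CTSS went from 0.81 to 3.25 CPM (log2 fold change 1.98 ± 0.28) and CD68 rose by 0.24 ± 0.05 (edgeR adjusted p = 7.16e-07 and 0.000244). CD74 had 0.27 ± 0.11 against Ctrl and did not pass (edgeR adjusted p = 0.0554). Against M0 EV and against M2 EV, 3 of the 5 were called higher (CTSS, CD68 and CD74), where 12.5% and 12.6% of all genes were. RNA carried in by the vesicles and RNA made by the MV3 cells cannot be told apart in these counts.

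With M0 and M2 vesicles ICAM1 did not pass the test. In M0 EV the level was 1.09-fold that of Ctrl (95% interval 0.949 to 1.26, edgeR adjusted p = 0.999), and in M2 EV it was 1.16-fold (1.01 to 1.33, adjusted p = 0.787). All 3 libraries of each group lay above the highest Ctrl library, a separation that 10.2% of all genes showed in M0 EV and 11.8% in M2 EV. Both intervals end far below the rise measured with M1 EV.

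ICAM2 and ICAM3 are ICAM1's relatives of leukocytes, with ICAM2 also on endothelium and platelets. ICAM2 (chr17:64002595-64020633) had 18 counts in all 12 libraries together, at most 4 in any library, and was not tested. ICAM3 (chr19:10333776-10339624) lay at 9.60, 8.22 and 10.8 CPM in Ctrl and at 9.91, 9.94 and 8.04 CPM in M1 EV. In M0 EV it was 9.85, 9.54 and 9.04 CPM and in M2 EV 9.08, 8.89 and 9.75 CPM. All 4 groups overlapped. The log2 fold change in M1 EV against Ctrl was -0.05 ± 0.11 (95% interval -0.28 to 0.18, edgeR adjusted p = 0.812).

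VCAM1 (chr1:100719742-100739045) had no count in any of the 12 libraries. A count of 0 over the 3 libraries of a group allows up to 3 counts, which is 0.0968 CPM in Ctrl, 0.0892 in M0 EV, 0.0973 in M1 EV and 0.0794 in M2 EV. These limits cover counting error only, because reads without molecular identifiers are not independent molecules. NCAM1 (chr11:112961420-113278436), the neural cell adhesion molecule, had 7 counts in all and at most 2 in a library. Neither gene could be tested.

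L1CAM (Entrez gene 3897, chrX:153861514-153886173), a neural adhesion molecule that also binds integrins, fell. It lay at 137, 135 and 139 CPM in Ctrl. The M0 EV libraries had 125, 130 and 133 CPM, and the M2 EV libraries 129, 121 and 125 CPM. In M1 EV it was 90.7, 96.7 and 92.3 CPM, below every other library. The level in M1 EV was 0.681 times that of Ctrl (95% interval 0.642 to 0.722), a log2 fold change of -0.55 ± 0.04 (edgeR adjusted p = 9.7e-14). The M0 EV and M2 EV libraries all lay below the lowest Ctrl library, where 10.2% and 11.8% of all genes did not overlap in either direction. Their log2 fold changes of -0.08 ± 0.04 (edgeR adjusted p = 0.964) and -0.13 ± 0.04 (adjusted p = 0.256) did not pass. L1CAM was lower in M1 EV than in M0 EV (log2 difference -0.47 ± 0.04) and M2 EV (-0.42 ± 0.04), with edgeR adjusted p = 9.56e-12 and 1.67e-10. In bulk RNA, fewer cells that express a gene and less of its RNA per cell cannot be told apart.

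MCAM (chr11:119308529-119317130), an adhesion molecule of endothelium and melanoma, rose. Its Ctrl libraries had 84.4, 74.3 and 86.2 CPM and its M1 EV libraries 102, 106 and 106 CPM. The M0 EV libraries had 77.7, 84.1 and 81.7 CPM and the M2 EV libraries 88.7, 91.7 and 84.5 CPM. M1 EV stood above all the rest, and M2 EV overlapped Ctrl. The rise in M1 EV was 1.28-fold (95% interval 1.20 to 1.37), a log2 fold change of 0.36 ± 0.05 (edgeR adjusted p = 1.92e-07). In M2 EV against Ctrl the log2 fold change was 0.11 ± 0.05 (edgeR adjusted p = 0.757).

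CD44 (chr11:35139171-35232402) was the most abundant of the 10 genes, and its rise was small in proportion. It lay at 1597, 1650 and 1617 CPM in Ctrl and 1792, 1776 and 1860 CPM in M1 EV. In M0 EV it was 1614, 1641 and 1610 CPM and in M2 EV 1573, 1588 and 1653 CPM. Only M1 EV stood apart. The level was 1.12-fold that of Ctrl (95% interval 1.07 to 1.16), a log2 fold change of 0.16 ± 0.03 (edgeR adjusted p = 2.2e-05).

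ALCAM (chr3:105366909-105576900), the ligand of CD6, fell slightly. It lay at 580, 601 and 590 CPM in Ctrl and 527, 538 and 556 CPM in M1 EV. The M0 EV libraries had 590, 592 and 587 CPM and the M2 EV libraries 586, 580 and 608 CPM. All M1 EV libraries lay below the other 9. Its log2 fold change in M1 EV against Ctrl was -0.13 ± 0.03 (edgeR adjusted p = 0.00137), or 0.916 times the Ctrl level.

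CD58 (chr1:116514534-116571026) lay at 8.60, 8.43 and 8.80 CPM in Ctrl and 8.67, 7.12 and 8.24 CPM in M1 EV. Its M0 EV libraries had 8.30, 9.34 and 8.51 CPM, and its M2 EV libraries 9.86, 9.72 and 9.29 CPM. Of the other 9 libraries, 1 of M0 EV reached the M2 EV range. The M2 EV libraries all lay above the highest Ctrl library, where 11.8% of all genes did not overlap in either direction. The log2 fold change in M2 EV against Ctrl, 0.16 ± 0.10, did not pass (edgeR adjusted p = 0.946). The log2 fold change in M1 EV against Ctrl was -0.11 ± 0.11 (95% interval -0.34 to 0.12, edgeR adjusted p = 0.565). The log2 difference in M1 EV against M2 EV was -0.27 ± 0.11 (adjusted p = 0.0817), and it passed with the counts of all transcripts summed, as -0.28 with an adjusted p of 0.0241.

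**Figure D2:**
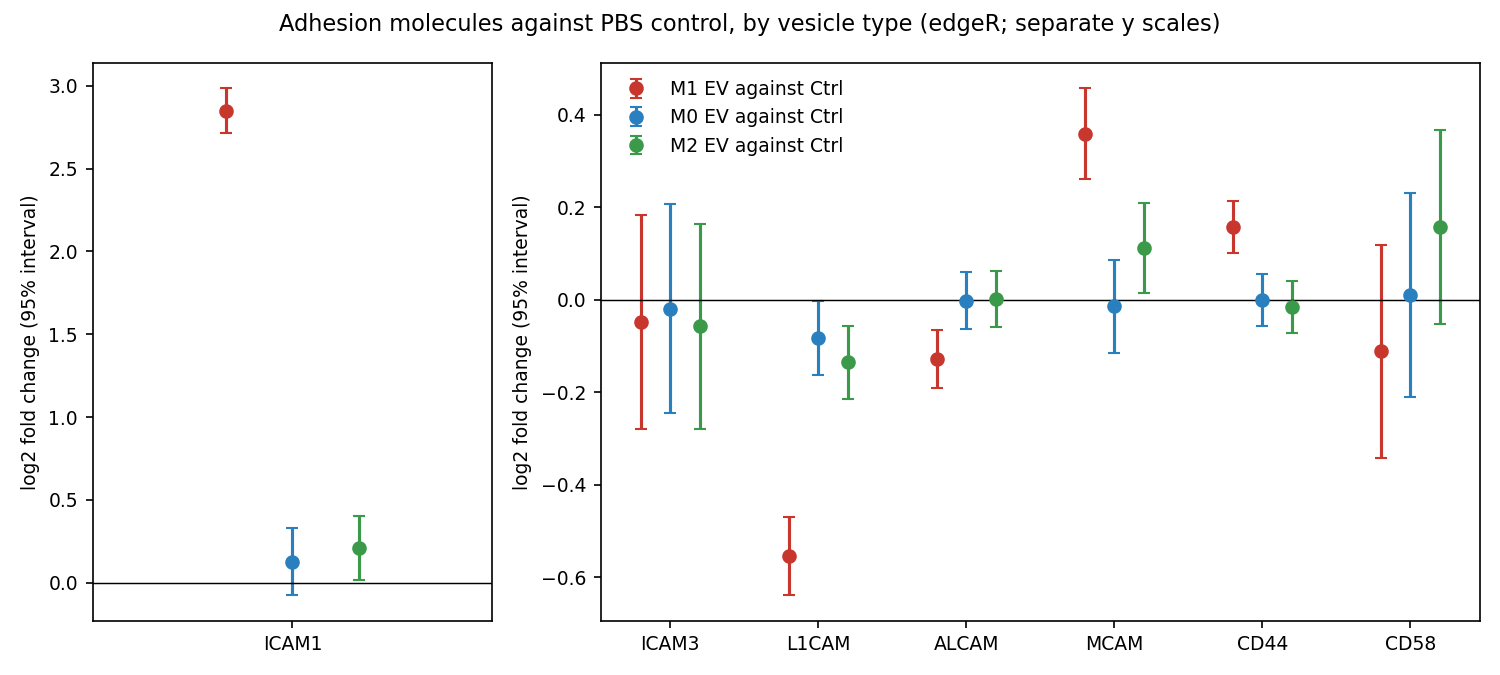
Log2 fold change of the 7 tested adhesion molecules in M0 EV, M1 EV and M2 EV against Ctrl, with bars for the 95% interval from edgeR. ICAM1 in M1 EV lies at 2.85 and L1CAM at -0.55, and the 0 of no change lies inside the interval of ICAM3 and CD58 in each comparison.

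No gene of the 7 tested was called with M0 or M2 vesicles. In M0 EV against Ctrl edgeR called 0 of the 7, where 0.0153% of all genes were called, and 1 (L1CAM) had an unadjusted p below 0.05, as did 5.07% of all genes. In M2 EV against Ctrl it called 0, where 0.0458% of all genes were called, and 3 (ICAM1, L1CAM and MCAM) had an unadjusted p below 0.05, as did 6.20% of all genes. DESeq2 and limma-voom called none in either comparison. In M2 EV against Ctrl DESeq2 gave ICAM1, ICAM3, MCAM and CD58 no adjusted p, so its 0 there covers only L1CAM, ALCAM and CD44. In M2 EV against M0 EV edgeR called 0 of the 7 and 0% of all genes. MCAM there had an unadjusted p of 0.0124, 3.41% of all genes had one below 0.05, and DESeq2 and limma-voom called none of the 7. Between vesicle types, M1 EV against M0 EV called 5 of 7 (ICAM1, MCAM and CD44 higher, L1CAM and ALCAM lower), where 25.3% of all genes were called (12.5% higher and 12.8% lower). M1 EV against M2 EV called the same 5 in the same directions, where 24.6% of all genes were called (12.6% higher and 12.0% lower). These comparisons share libraries, so the calls are not independent. Each comparison with Ctrl also shares the same 3 Ctrl libraries.

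Levels of different genes can be set side by side only per length, so CPM was divided by the length in kilobases of the longest matched GENCODE 29 transcript. In Ctrl the order of CPM per kilobase was CD44 at 283 ± 4.65, ALCAM at 126 ± 2.15, L1CAM at 26.6 ± 0.383, MCAM at 24.6 ± 1.93, CD58 at 6.48 ± 0.139, ICAM3 at 4.72 ± 0.647 and ICAM1 at 3.26 ± 0.0316 (SD, n = 3). ICAM1 was thus the lowest of the 7. In M1 EV it had 23.5 ± 0.553 CPM per kilobase and stood between MCAM at 31.7 ± 0.638 and L1CAM at 18.1 ± 0.607. In M0 EV and M2 EV it remained the lowest, at 3.58 ± 0.197 and 3.77 ± 0.349. L1CAM and MCAM were close neighbours in Ctrl, and in M0 EV, at 25.2 ± 0.812 and 24.5 ± 0.98, they lay within their SDs. Another choice of transcript length would move such near neighbours.

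RefSeq transcripts of CD44 share most exons, so their counts may hold the same reads. The standard transcript NM_001001391, which lacks the variable exons, held 99.1 ± 0.05% in M1 EV and 99.3 ± 0.10% in Ctrl of the counts of NM_000610, the longest one (SD, n = 3, exact permutation p = 0.2, smallest possible p = 0.1). In single libraries this share ran from 99.05% to 99.31%, which left 0.69% to 0.95% outside the standard transcript. M1 EV, at 99.08%, did not overlap M2 EV, at 99.17% (exact permutation p = 0.1). Another CD44 transcript, NM_001202557, held 37.6 ± 0.59% in M1 EV and 38.0 ± 0.57% in Ctrl (exact permutation p = 0.5), and these groups overlapped. For ALCAM, the transcript NM_001243283 held 21.4 ± 1.29% of the counts of the kept one in M1 EV and 20.5 ± 0.45% in Ctrl (exact permutation p = 0.3), and the groups overlapped. With 3 libraries against 3 no share can reach a p below 0.1.

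ICAM1 lies in a cluster of relatives on chromosome 19, and the window from 100 kb before ICAM1 to 100 kb past ICAM3 holds 13 protein-coding genes. This comparison with neighbours was added with earlier results of these data known. Of these, 11 were tested, and of the 10 others than ICAM1, 6 rose and 0 fell in M1 EV against Ctrl, with log2 fold changes from -0.11 to 0.44, where 14.3% of all tested genes rose and 13.7% fell. Among the 6, the calls of ICAM5, RAVER1, CDC37 and PDE4A were each lost under at least 1 alternative. ICAM5, the telencephalic relative, went from 4.99 to 6.74 CPM (log2 fold change 0.44 ± 0.15, edgeR adjusted p = 0.0239), which DESeq2 (adjusted p = 0.106) did not call. MRPL4, a mitochondrial ribosomal protein gene just before ICAM1, rose by a log2 value of 0.25 ± 0.05 (edgeR adjusted p = 5e-05), and TYK2, a kinase of cytokine receptors, had 0.02 ± 0.05 (adjusted p = 0.777). ICAM4, whose start lies 340 bases after the end of ICAM1, had 0 counts in every Ctrl, M0 EV and M2 EV library and 0, 6 and 2 in the M1 EV libraries. Of these 8 counts, 6 came from M1 EV replicate 2, and no fold or test is given for ICAM4. Antisense loci overlap the 3' part of ICAM1 and ICAM3, with strand use in counting not given in the sources used here, so reads of a gene and its antisense partner cannot be told apart.

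**Figure D3:**
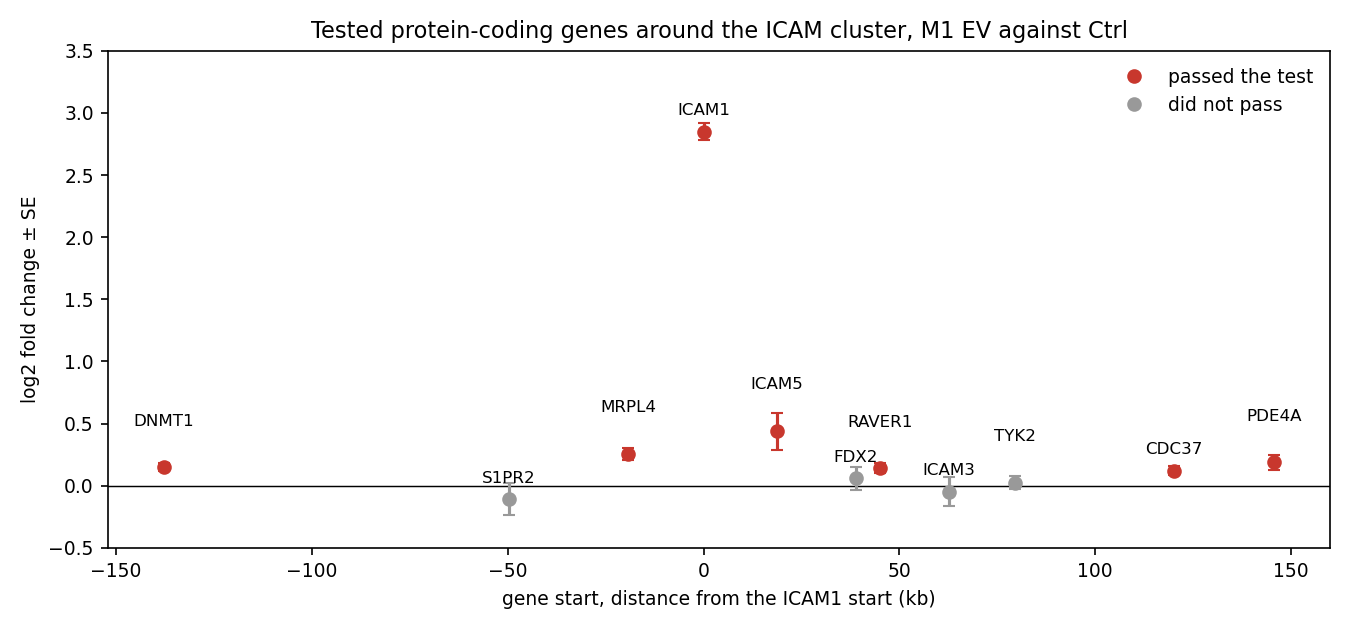
Log2 fold change in M1 EV against Ctrl of the tested protein-coding genes around ICAM1, against distance in kilobases from the ICAM1 start site, with bars for 1 SE. ICAM1 lies at 2.85, and the other 10 genes lie between -0.11 and 0.44.

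Genes whose profile over the 12 libraries was closest to that of ICAM1 were chosen by the root mean square difference of log2 CPM centred on each gene's Ctrl mean, among 11783 genes. The closest was CD82 (difference 0.148), a tetraspanin of the cell surface. Next came IL1B (0.244), an inflammatory cytokine, C1S (0.256), a complement protease, CSF3 (0.303), a granulocyte growth factor, TNFRSF9 (0.312), a costimulatory receptor, and BIRC3 (0.319), an inhibitor of apoptosis. CD82 went from 4.08 ± 0.223 to 26.3 ± 1.70 CPM (SD, n = 3) in M1 EV. For L1CAM, the closest were TNFRSF21 (0.0377), a death receptor, CTIF (0.0416), TOX2 (0.0424), DUSP4 (0.0494), a phosphatase of MAP kinases, ZFP36L2 (0.0533), an RNA-binding protein, and PRSS23 (0.0536). Likeness was ranked on the same libraries that chose the genes, so it is a description.

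**Figure D4:**
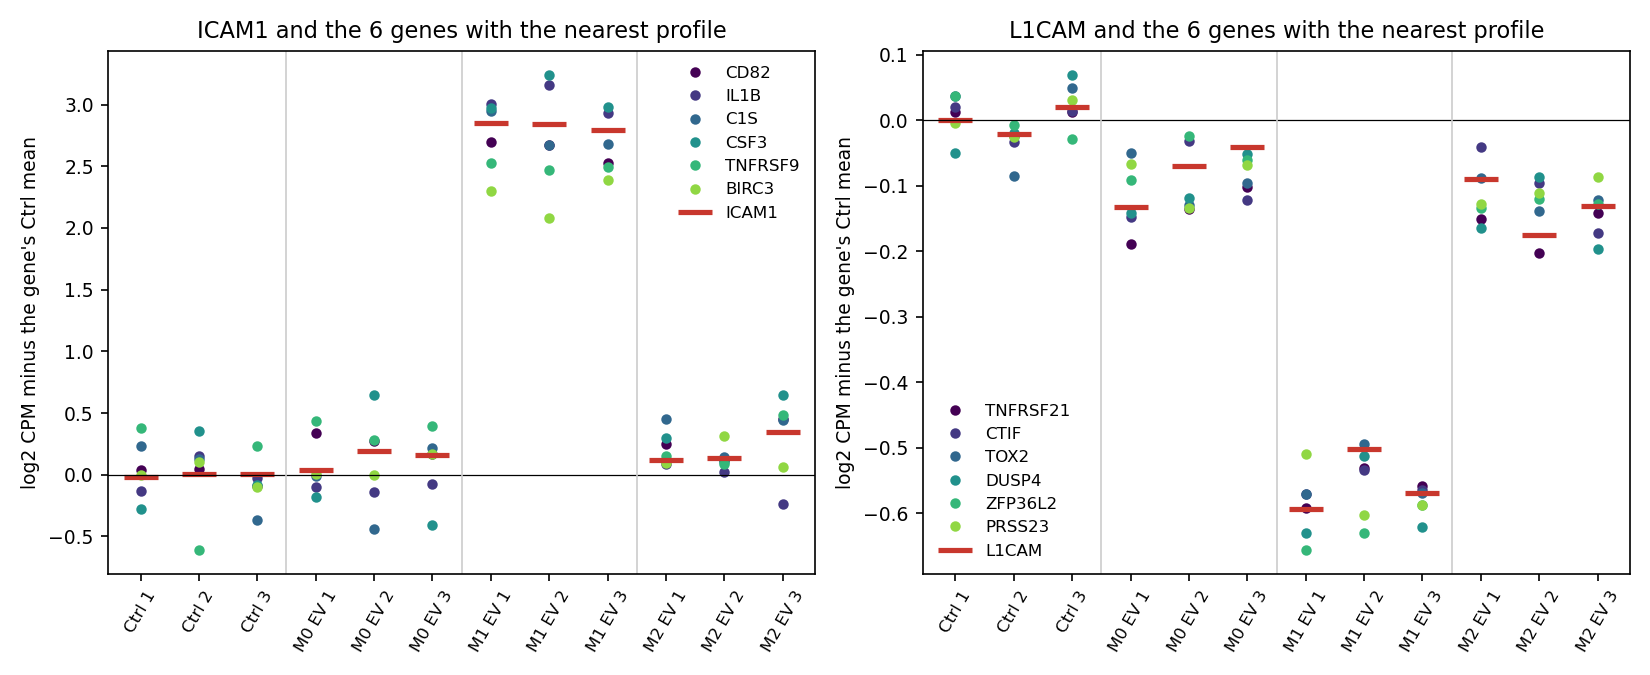
Log2 CPM minus the gene's own Ctrl mean in each of the 12 libraries, for ICAM1 (left) and L1CAM (right) as bars and for the 6 nearest genes as points. In the 3 M1 EV libraries BIRC3, the lowest of the left panel, lies at 2.08 to 2.39 and ICAM1 at 2.79 to 2.85, while L1CAM lies at -0.59 to -0.50.

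Other genes of adhesion and its regulation were read from 8 lists of 120 tested genes. In M1 EV against Ctrl 54 were called, where 28.1% of all tested genes were. Of these, 36 were higher and 18 lower, where 14.3% and 13.7% of all genes were, and 12 of the 36 were transcription factors. In M0 EV and M2 EV against Ctrl 0 of the 120 were called, where 0.0153% and 0.0458% of all genes were. edgeR gave 7 and 10 of them an unadjusted p below 0.05 in those 2 comparisons, where 5.07% and 6.20% of all genes had one, and DESeq2 and limma-voom called none. In M2 EV against Ctrl DESeq2 gave some genes no adjusted p, ICAM1 and MCAM among them, so its 0 may not cover all 120. The lists were written with earlier results known, so the counts describe and do not test them, and nothing particular to a list is read from them.

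Among other immunoglobulin-superfamily adhesion molecules, 5 of 19 tested rose and 3 fell in M1 EV, where 14.3% of all genes rose and 13.7% fell, with a median log2 fold change of 0.05. The same shares stand beside the cadherins. PVR, a ligand of receptors on NK and T cells, rose by a log2 value of 0.31 ± 0.04, and CD47, which engages SIRPA on phagocytes, by 0.20 ± 0.04. BCAM, a laminin receptor, fell by 0.90 ± 0.14 on the log2 scale. Of 9 tested cadherins 1 rose and 3 fell (median -0.19). FAT4, a giant cadherin, fell by 0.66 ± 0.08, and PCDH10 fell by 0.26 ± 0.07.

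Of selectins, sialomucins and the enzymes that build their sugars, 3 of 11 tested rose (14.3% of all genes did) and 1 fell (13.7% of all genes did), with a median of -0.05. B4GALT1, a galactosyltransferase, rose by a log2 value of 0.51 ± 0.04 and PODXL, a sialomucin, by 0.30 ± 0.05, while CD24, a small mucin-like ligand of P-selectin, fell by 1.33 ± 0.21. SELE had no count in any library. Among the partners that bind the 10 molecules, 4 of 11 tested rose and 2 fell (median 0.08), beside the same all-gene shares. ITGA5 and ITGAV, integrin subunits that bind L1CAM, rose from 192.5 to 266.5 and from 146.4 to 198.8 CPM (log2 fold changes 0.47 ± 0.03 and 0.44 ± 0.04). ITGB1 rose by 0.16 ± 0.03, while ITGA4, which forms the VCAM1 receptor with it, had -0.07 ± 0.04 (edgeR adjusted p = 0.156). GDNF, which can signal through NCAM1, rose by 1.07 ± 0.11, and the galectin LGALS3 fell by 0.45 ± 0.05. The leukocyte integrin genes ITGAL, ITGAM and ITGB2, which encode the receptors of ICAM1, had 6, 2 and 32 counts over all 12 libraries, and CD2, the receptor of CD58, had 0. These were not tested.

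In the hyaluronan and CD44 system, 5 of 13 tested rose (14.3% of all genes did) and 0 fell (13.7% of all genes did), with a median of 0.05. HAS2, a hyaluronan synthase, rose from 15.3 to 27.9 CPM (log2 fold change 0.87 ± 0.08). VCAN, a proteoglycan that binds hyaluronan, rose by 0.61 ± 0.08 and CEMIP2, a cell surface hyaluronidase, by 0.34 ± 0.06. Of the proteins that tie adhesion molecules to the cytoskeleton, 2 of 19 rose and 5 fell (median -0.02), beside the same all-gene shares. ANK1, an ankyrin of the family that anchors L1CAM, fell from 7.48 to 1.99 CPM (log2 fold change -1.93 ± 0.19), and ANK2 and ANK3 had -0.17 ± 0.08 and 0.27 ± 0.14 and were not called. SPTAN1 and ACTN4 fell, with log2 fold changes of -0.21 ± 0.04 and -0.16 ± 0.03, and ACTN1 rose by 0.15 ± 0.03. MSN, a linker of ICAM1 and CD44 to actin, rose by 0.12 ± 0.03.

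Of 18 tested enzymes and regulators of ectodomain shedding, 4 rose and 4 fell (median -0.04), where 14.3% of all genes rose and 13.7% fell. MMP14, a membrane protease that cleaves CD44, rose from 453.9 to 669.8 CPM (log2 fold change 0.56 ± 0.03). ADAM12, RHBDF1 and ADAM9 fell, with log2 fold changes of -0.37 ± 0.05, -0.50 ± 0.08 and -0.20 ± 0.03. ADAM10 and ADAM17, the main sheddases of L1CAM, CD44 and ALCAM, had 0.08 ± 0.04 and 0.09 ± 0.05 and were not called (edgeR adjusted p = 0.17 and 0.232). Of 20 tested transcription factors known to act at the ICAM1 promoter, 12 rose (14.3% of all genes did) and 0 fell (13.7% of all genes did), with a median of 0.19. RELB rose by a log2 value of 1.83 ± 0.07, JUNB by 1.21 ± 0.07, CEBPD by 1.18 ± 0.07, NFKB2 by 0.96 ± 0.05 and RELA by 0.20 ± 0.04. IRF1 had -0.06 ± 0.05 and JUN -0.00 ± 0.03, and neither was called. All values are from edgeR.

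**Figure D5:**
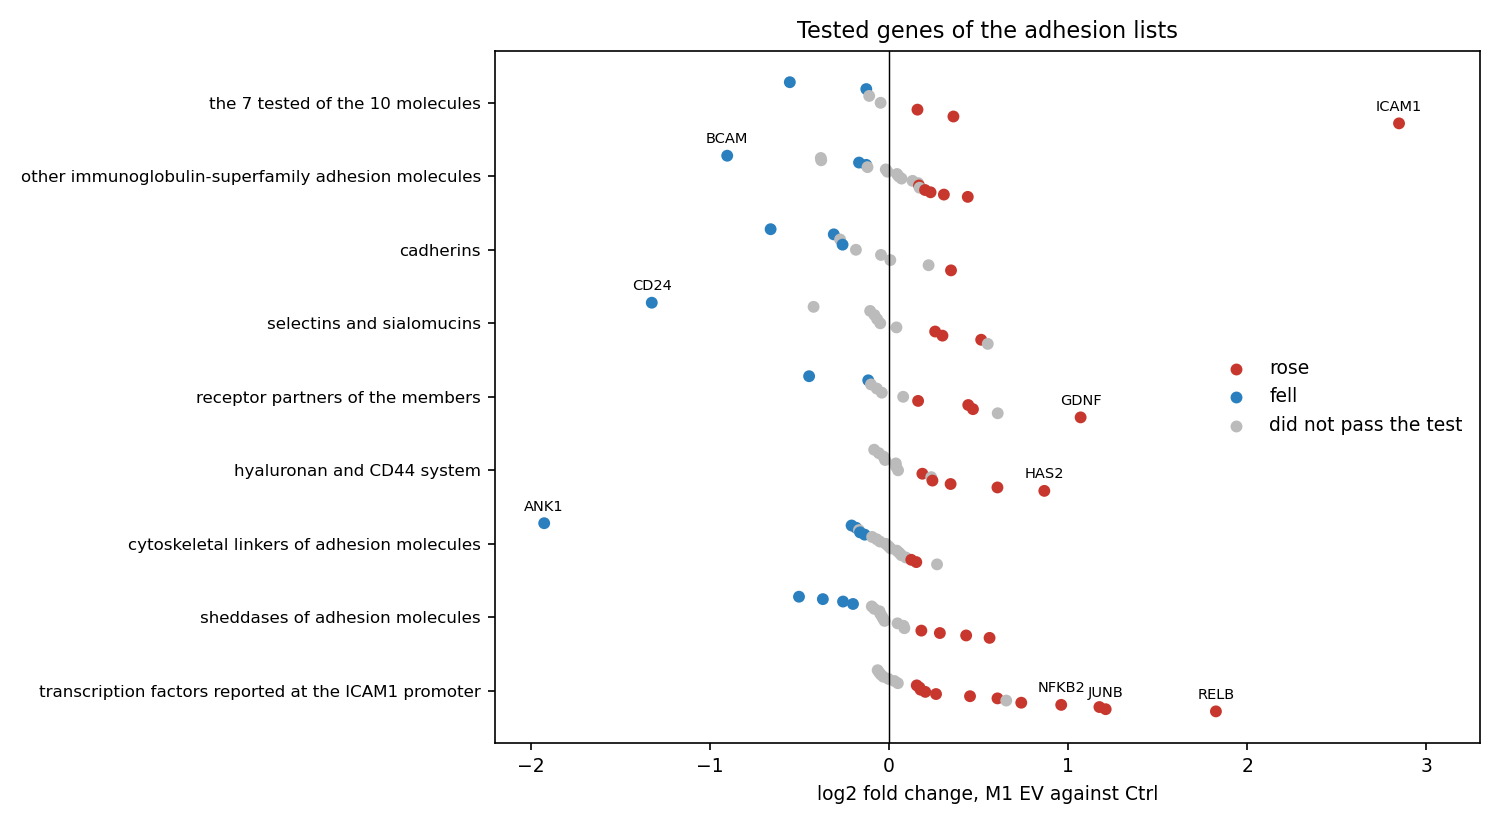
Log2 fold change in M1 EV against Ctrl of each tested gene of the 8 adhesion lists and of the 7 tested adhesion molecules, with red points for genes that rose, blue for genes that fell and grey for genes that did not pass the test. ICAM1 lies at 2.85, RELB at 1.83, CD24 at -1.33 and ANK1 at -1.93.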

How the data were processed

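RNA was measured in 12 libraries of MV3 cells. The authors deposited expected counts per RefSeq transcript, without normalization, as multiples of 0.5 (51.3% of non-zero values were fractional). The submitters' processing notes name STAR 2.6.1b, HOMER 4.10 and hg38, with no role given. The column used for M0 EV replicate 1 is spelled without a digit in the cell line's name and fits no other sample. Unnamed transcripts (350, with 0.061% to 0.064% of the counts) were left out. For each of 28070 genes the transcript with the highest summed count was kept and rounded.

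edgeR 4.0.16 (R 4.3.3) was used with TMM scaling (factors 0.993 to 1.007), a quasi-likelihood model over all 12 libraries with 1 term per group (8 residual degrees of freedom) and its default low-count filter, which kept 13106 genes. P-values were 2-sided and adjusted over all tested genes within each of 6 comparisons. Standard errors come from the F statistic. Alternatives were DESeq2 1.42.0, limma-voom (limma 3.58.1), other scalings and filters, only the 2 groups compared, a replicate block, other transcript choices and leaving out each library. M0 EV replicates 2 and 3 differed little beyond sampling error (chi-square of their counts over its degrees of freedom 1.04, p = 0.00136), and M0 EV replicate 1 stood farther from both (2.03 and 2.35), so the M0 EV group may hold fewer than 3 independent samples. All 3 were kept, and summing replicates 2 and 3 was an alternative added after the data were seen. The molecules and gene lists were chosen with earlier results of these data known. The rule for naming genes covers the 10 molecules, the 6 nearest profiles and up to 4 called genes per list. Those 4 have the smallest adjusted p in M1 EV against Ctrl, and up to 3 come from any other comparison. Not every list gene that it covers is named in the text. IRF1, JUN, RELA, ITGB1, ITGA4, ADAM10, ADAM17, ANK2, ANK3, MSN, SELE and the leukocyte receptors are outside that rule and were named after their values were seen, as were the genes around ICAM1 and the marker genes.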

Additional observations from a re-analysis of the deposited data

How the results depend on the processing

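For the 7 tested molecules 673 values were recomputed, not counting ICAM1 in M1 EV against Ctrl. Of these, 672 kept their side of the threshold, and the exception was CD58 in M1 EV against M2 EV with all transcripts summed. In 12 results, 35 of the values changed sign, none of them called in either setting. In M1 EV against Ctrl the 5 calls held in 16 of 16 alternatives, with ICAM1 at 2.84 to 2.87. Among genes called over the whole table, the count in M0 EV against Ctrl (2) became 0 with DESeq2, 53 without the filter, 0 with transcripts summed, 1 with M0 EV replicates 2 and 3 summed, and 0 to 87 without single libraries, 87 without M0 EV replicate 1, 1 when M0 EV replicate 3 or Ctrl replicate 2 was omitted, and 0 when M0 EV replicate 2 or Ctrl replicate 3 was. The count in M2 EV against Ctrl (6) became 2 with DESeq2, 31 without the filter, 62 with only the 2 groups, 0 with transcripts summed, and 0 to 24 without single libraries, 24 without Ctrl replicate 2 and 0 or 1 without any other. In M1 EV against M2 EV DESeq2 called 2104 genes, where edgeR called 3227. In M2 EV against M0 EV (0) there were 12 without the filter and 0 to 36 without single libraries, the highest without M0 EV replicate 1. Cadherins called in M1 EV against Ctrl (4) were 2 to 4 without single libraries, with 2 (without PCDH7 and PCDH9) when Ctrl replicate 2 was left out. The cause of these shifts was not tested.

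Whether the replicate numbers pair the samples is not settled by these counts. Over 18 pairs of same-numbered libraries the correlation of deviations was -0.0475 to 0.0913, and 8 of 18 correlated best with their own number. Every pair of M2 EV with M1 EV or M0 EV did so, and no pair of M1 EV or M2 EV with Ctrl did. Correlations this small, with 3 libraries per group, cannot decide it. With the replicate number as a block, the whole-table counts were 20 in M0 EV against Ctrl and 1 in M2 EV against M0 EV, and no call of the 10 molecules changed.

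ICAM5 was not called with transcripts summed (adjusted p = 0.0635) or, by edgeR, without Ctrl replicate 1 (0.0531), Ctrl replicate 3 (0.102) or M1 EV replicate 3 (0.0945). RAVER1 was lost without M1 EV replicate 2 (0.0982), CDC37 with transcripts summed (0.0502) or without M1 EV replicate 1 (0.0527), and PDE4A with DESeq2 (0.064) or without Ctrl replicate 2 (0.119) or M1 EV replicate 3 (0.0562). Depth limits ICAM2, NCAM1 and ICAM4, whose counts are too few to test.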

Other observations

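The summed level of the 10 adhesion molecules was 2407 to 2503 CPM in the 9 Ctrl, M0 EV and M2 EV libraries and 2608 to 2706 CPM in the 3 M1 EV libraries. CD44 made up 65.4% to 66.3% of this sum outside M1 EV and 68.0% to 68.7% in M1 EV. ICAM1 made up 0.430% to 0.542% outside M1 EV and 2.75% to 2.98% in M1 EV. These shares are of CPM, not per length, and no test was run on them.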
